A study of Mus musculus with 14 samples.

Results

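Imprinted genes are expressed mainly from the chromosome inherited from 1 parent, and many of them set how fast fetal tissues grow. A group of 9 such genes was followed in liver sinusoidal endothelial cells (LSECs), the fenestrated cells that line the hepatic sinusoids, after a single toxic injury of the mouse liver. The genes were taken by name (Igf2, Dlk1, Grb10, Cdkn1c, Plagl1, Peg3, Mest, H19 and Meg3) from a table of 54524 genes counted by RNA sequencing, and all 9 were among the 26626 genes with enough reads to be tested. Male Balb/c mice, with no transgene or deletion named, were either left untreated (healthy, 4 mice) or injected once into the peritoneum with 0.5 µl per g of carbon tetrachloride (CCl4) in mineral oil, a solvent that injures hepatocytes. Livers of injected mice were taken after 1 day (2 mice), 3 days (4 mice) or 7 days (4 mice). The labels give an age of 10 to 12 weeks for healthy and treated mice alike, and the methods a slightly older one. A further 2 samples of day 1 were left out of sequencing for poor RNA quality. The healthy mice were not given the oil, so that the effects of CCl4 and of the injection with oil cannot be told apart. Freshly isolated cells that carried CD32 but not F4/80, and that were without ultraviolet autofluorescence or propidium iodide, were collected without culture, and the methods add a gate against CD45, a marker of blood cells, so each sample is sorted LSECs of 1 mouse.

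Genes of this kind are often expressed in the embryo and fetal liver and are turned down after birth. Igf2 and H19 lie next to each other and are expressed from opposite parental chromosomes, and the same holds for Dlk1 and Meg3. Paternally expressed genes of the group include Igf2, Dlk1, Peg3, Plagl1 and Mest, whereas H19, Meg3, Cdkn1c and, in most tissues, Grb10 are expressed from the maternal chromosome. The reads were not assigned to parental chromosomes here, so the values are the sum over both.

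Both mature microRNAs made from H19 and from Mest are shown because these RNAs are hosts as well as transcripts of their own. The sequences are those of RefSeq on GRCm38.p6, and the capitals mark the seed, bases 2 to 8.
miR-675-5p (within H19, chr7:142577112-142577133, minus strand): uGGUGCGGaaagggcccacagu
miR-675-3p (within H19, chr7:142577078-142577099, minus strand): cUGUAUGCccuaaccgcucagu
miR-335-5p (within Mest, chr6:30741314-30741336, plus strand): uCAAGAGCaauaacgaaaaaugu
miR-335-3p (within Mest, chr6:30741354-30741375, plus strand): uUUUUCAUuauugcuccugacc
The 4 seeds differ from each other. Mature microRNAs were not measured in these libraries, and counts on the host genes are not counts of them.

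The 250 bases before a RefSeq start site are shown for Mest, the member with the most transcript, for Meg3, which rose by day 7, and for Grb10, each on the strand of the gene and with CpG, the dinucleotide at which imprinted genes carry their methylation marks, in capitals. DNA methylation was not measured.
Mest (GRCm38.p6, chr6:30737800-30738049, plus strand): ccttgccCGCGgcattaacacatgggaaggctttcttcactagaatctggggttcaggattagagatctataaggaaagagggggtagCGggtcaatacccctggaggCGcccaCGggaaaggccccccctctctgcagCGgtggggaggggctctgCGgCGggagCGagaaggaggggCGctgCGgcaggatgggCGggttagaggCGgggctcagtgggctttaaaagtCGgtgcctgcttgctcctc
Meg3 (GRCm38.p6, chr12:109540746-109540995, plus strand): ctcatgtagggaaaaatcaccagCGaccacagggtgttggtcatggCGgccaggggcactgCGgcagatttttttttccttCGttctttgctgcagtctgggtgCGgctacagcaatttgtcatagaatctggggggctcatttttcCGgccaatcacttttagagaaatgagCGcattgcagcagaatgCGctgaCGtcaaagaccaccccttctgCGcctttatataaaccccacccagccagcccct
Grb10 (GRCm38.p6, chr11:12037421-12037670, minus strand): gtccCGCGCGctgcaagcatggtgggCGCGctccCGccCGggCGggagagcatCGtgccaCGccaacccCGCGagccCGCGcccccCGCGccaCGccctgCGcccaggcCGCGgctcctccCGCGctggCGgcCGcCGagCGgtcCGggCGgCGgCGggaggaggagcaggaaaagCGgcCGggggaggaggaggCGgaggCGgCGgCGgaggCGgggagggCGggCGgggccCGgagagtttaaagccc
The Mest window shown held 14 CpG, the Meg3 window 10 and the Grb10 window 40, whereas the median of the 32817 windows of the RefSeq table was 6. The Grb10 window shown held more CpG than 98.7% of all windows. The letters TATAAA, searched on both strands, occurred 2 times in the Meg3 window shown, as overlapping matches on opposite strands of the same stretch. They occurred in none of the other 2, and 12.4% of all windows held them. The table held 14 windows for 7 of the 9 genes, and other windows of the same gene differed from those shown. A second Grb10 window held 8 CpG, more than 57.03% of all windows, a second Meg3 window held no CpG and no TATAAA, and another Mest window held 7 CpG.

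In healthy LSECs the 9 genes spanned a wide range of levels. Levels of different genes are given as TPM, which scales each library to the same total and divides the counts by the length of the exons of each gene. Mest was the highest with 90.7 ± 15.2 TPM (mean ± SD, n = 4), above 94.4% of the tested genes, and Cdkn1c followed with 54.3 ± 14.1 TPM. Grb10 stood at 10.6 ± 1.29 TPM and Plagl1 at 5.65 ± 1.45 TPM, and the mice did not overlap between any neighbours among these 4. The other 5 genes were low: Peg3 at 0.467 ± 0.113 TPM, Igf2 at 0.315 ± 0.178, H19 at 0.0840 ± 0.0524, Meg3 at 0.0403 ± 0.0292 and Dlk1 at 0.0180 ± 0.0127. Neighbours among these last 5 overlapped between mice. Mest stayed the highest member on every day, whereas Cdkn1c moved from place 2 of the 9 in healthy LSECs to place 4 at days 1 and 3 and back to place 2 at day 7.

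From here on, levels of a single gene between mice are given as CPM (counts as a share of the library, scaled between samples by the TMM method), and differences as log2 fold changes with their standard errors (SE). A gene was called higher or lower when its p-value, adjusted over all 26626 tested genes (edgeR's quasi-likelihood test), was under 0.05. At day 1, 1 of the 9 genes was called (Cdkn1c, lower), where 4.06% of all genes were called and 1.64% were lower. At day 3, Mest was called higher and Cdkn1c and Igf2 lower, 3 of 9 genes against 7.19% of all genes (4.62% higher and 2.58% lower), but the call of Igf2 depended on how reads of that locus were divided between gene models (given with Igf2). At day 7, H19 and Meg3 were called higher, 2 of 9 genes against 3.18% of all genes (2.19% higher), and Cdkn1c was not called. The median log2 fold change of the 9 genes was -0.78 at day 1, 0.84 at day 3 and 1.04 at day 7, and that of all tested genes was -0.03, 0.18 and 0.02. The day 7 median was the value of Igf2, which was 0.60 with both gene models of its locus added. With Igf2 at 0.60, the middle value would be that of Dlk1 (0.96), which held 26 counts in the day 7 mice. At day 1, Dlk1, H19 and Meg3, all below the median, held only 2, 3 and 15 counts. The 3 comparisons use the same healthy mice.

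**Figure D1:**
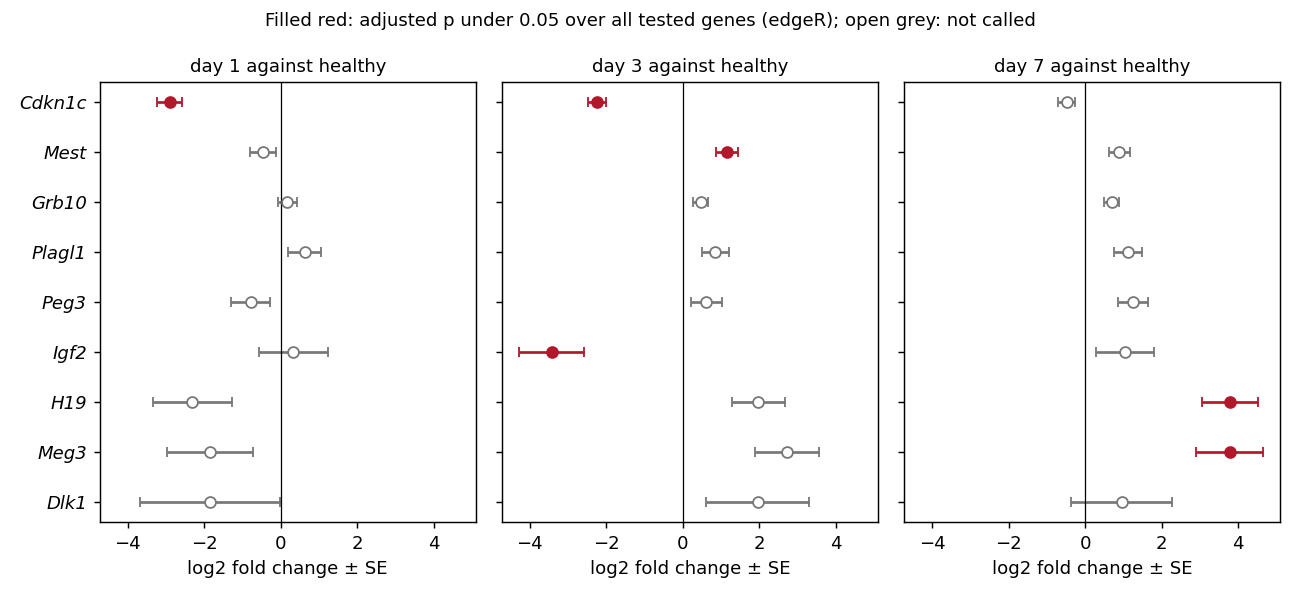
Log2 fold change (x axis, ± SE) of each of the 9 genes at day 1, day 3 and day 7 against healthy LSECs; filled red points passed an adjusted p of 0.05 in edgeR, open grey points did not. Cdkn1c was lowest at day 1 (-2.90) and was not called at day 7 (-0.48), and H19 and Meg3 reached 3.79 and 3.78 at day 7. The day 1 values of Dlk1 and H19 rest on 2 and 3 counts.

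The libraries held between 46401496 and 103912264 counted reads. Summed over 10 LSEC markers, the level ran from 16313 to 19678 CPM in healthy mice and from 12416 to 15178, 10504 to 14435 and 9796 to 14130 CPM on days 1, 3 and 7, and all 10 were detected in every mouse. Markers of other cells were present too. The sum of 12 stellate cell markers (collagen-making pericytes of the sinusoid) ran from 62.2 to 98.3 CPM in healthy mice and from 188 to 284, 253 to 489 and 110 to 907 CPM on days 1, 3 and 7, and at least 11 of the 12 were detected in every mouse. At day 1 the higher sum came from Hgf, the one marker called (28.4 to 199 CPM), while the median log2 fold change of the 12 was -0.54. Ultraviolet autofluorescence, which the sort left out, is the property of stellate cells that the gate was set against. The sum of 10 monocyte and neutrophil markers was 522 to 1416 CPM in healthy mice, 4510 to 8691 at day 1 and 4199 to 9692 at day 7. It was 1385 to 13260 CPM at day 3, where mice 1 and 2 (13260 and 8090) stood apart from mice 3 and 4 (1499 and 1385). Mice 1 and 2 of day 3 also had 34678 and 34768 genes with at least 1 read, against 28203 and 22986 in mice 3 and 4. Calls of Mest and Igf2 that were lost without either pair are given with these genes. In bulk RNA, fewer cells of a type and less RNA per cell cannot be told apart.

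**Figure D2:**
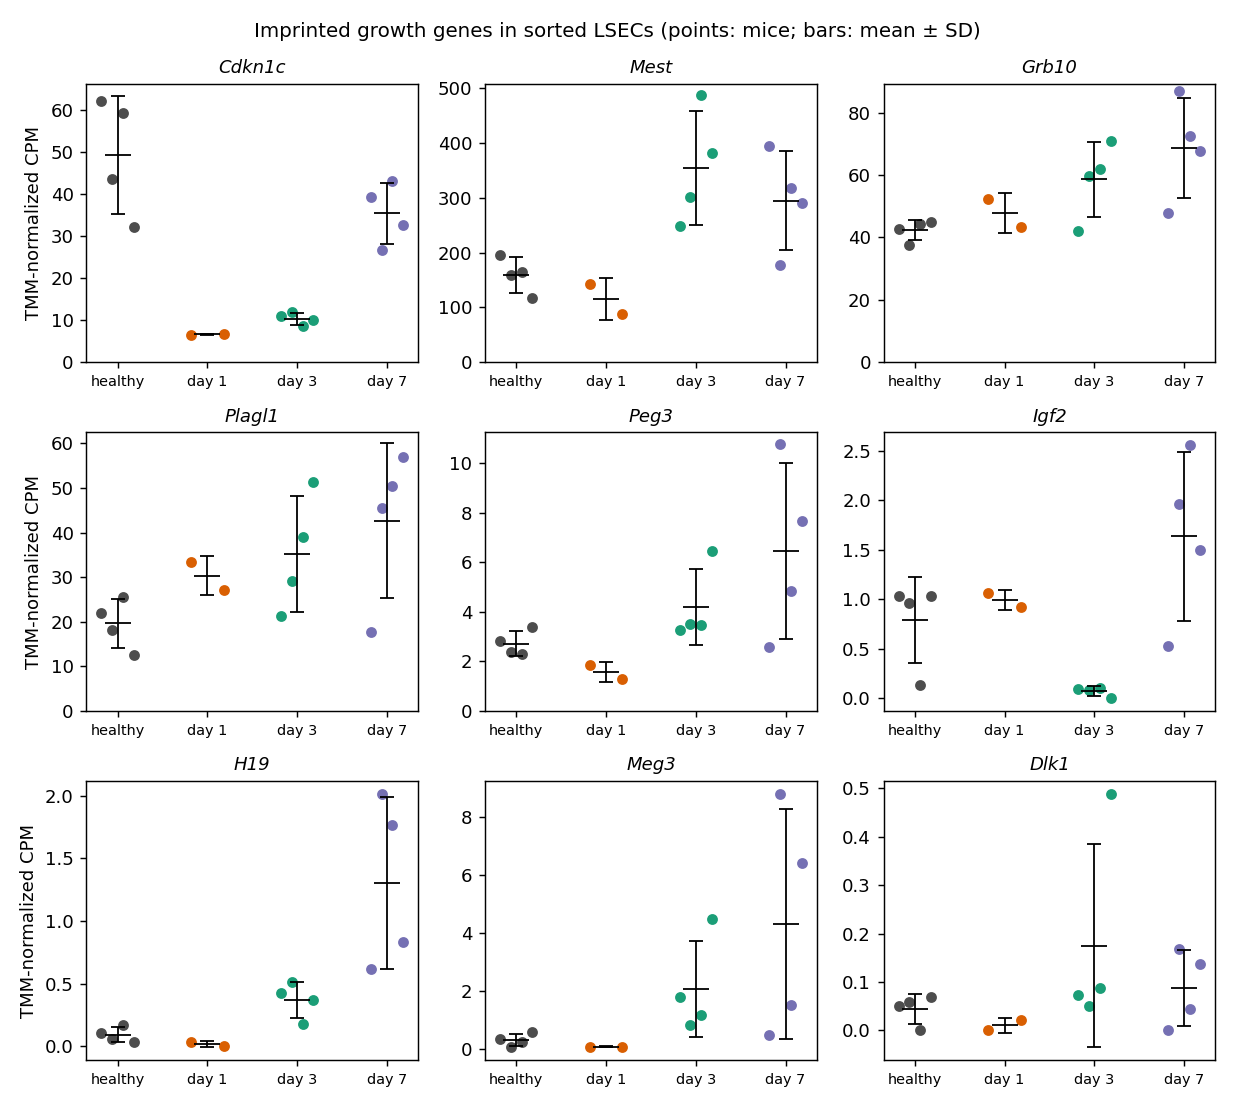
TMM-normalized CPM (y axis, linear, own scale in each panel) of the 9 genes in each mouse of the healthy, day 1, day 3 and day 7 groups; points are mice, horizontal marks the mean and bars ± SD. The 6 mice of days 1 and 3 lie below every healthy mouse for Cdkn1c, and 1 day 7 mouse sits apart from the other 3 for Plagl1.

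Cdkn1c, which encodes the cyclin-dependent kinase (CDK) inhibitor p57Kip2, a brake on entry into the cell cycle, was called in 3 of the 5 comparisons, more than any other member. The gene lies on chr7:143458339-143461050 (minus strand). Its level was 62.1, 43.5, 59.3 and 32.1 CPM in the 4 healthy mice, 6.48 and 6.73 CPM at day 1, and 10.9, 11.9, 8.57 and 9.99 CPM at day 3. At day 7 it was 39.3, 26.7, 43.0 and 32.5 CPM. Every mouse of days 1 and 3 was below every healthy mouse, as was the case for 17.9% of all tested genes at day 1 and 6.84% at day 3, whereas the day 7 mice overlapped the healthy ones.
The level was 7.46-fold lower at day 1 than in healthy LSECs (log2 fold change -2.90, SE 0.32, adjusted p = 0.000314 in edgeR) and 4.76-fold lower at day 3 (-2.25, SE 0.23, adjusted p = 0.000607). Both calls held under all the alternatives tried. From day 3 to day 7 the level rose 3.42-fold (1.77, SE 0.23, adjusted p = 0.00714), where 1.77% of all genes were called and 0.413% were higher, and this call was lost when the model held only these 2 groups (adjusted p = 0.0731). At day 7 the difference from healthy LSECs was -0.48 (SE 0.22, adjusted p = 0.242). Cdkn1c shares 625 exonic bases with the antisense gene Gm44732, which held 153 counts over the 14 mice together. Between day 1 and day 3 the difference was 0.65 (SE 0.28) and was not called (adjusted p = 0.286). On the TPM scale the mice of days 1 and 3 (5.87 to 12.2 TPM) also lay below those of healthy LSECs (38.6 to 67.3 TPM). Day 7 mice 2, 3 and 4 (18.8, 27.5 and 25.0 TPM) lay below all healthy mice on this scale as well. Day 7 mouse 1 (52.5 TPM) lay within the healthy range.

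Of 7 further CDK inhibitor genes, none was called lower at day 1 or day 3. At day 1 edgeR called none, with 2 at an unadjusted p under 0.05, and DESeq2 and limma-voom called 1 each, higher (in healthy LSECs and at day 1 Cdkn1a, the p53 target p21, had means of 309 and 723 CPM, log2 fold change 1.22, SE 0.36, adjusted p = 0.0773), and 1 was called higher at day 3, Cdkn3, a phosphatase that acts on CDKs (3.04 to 10.7 CPM, 1.81, SE 0.51, adjusted p = 0.0474). Cdkn1b, the third gene of the Cip/Kip family, had a mean of 34.2 CPM in healthy LSECs and 21.6 CPM at day 3 (-0.66, SE 0.41, adjusted p = 0.379). Without a call, the mean of Cdkn2c went from 24.8 to 12.0 CPM at day 1 and that of Cdkn3 from 3.04 to 1.46 CPM. For both, the day 1 mice lay below all healthy mice, as was the case for 17.9% of all tested genes. The median log2 fold change of the 7 genes at day 1 was 0.27.
Genes of cell division rose at day 3. Of 14 such genes edgeR and DESeq2 each called 12 higher at day 3 (median log2 fold change 2.00) and 6 lower from day 3 to day 7, and limma-voom called 7 and 4. The edgeR test called none at day 1 (median -0.76, 4 at an unadjusted p under 0.05), where DESeq2 and limma-voom called 2 lower, and none at day 7 (median 0.77, 7 at an unadjusted p under 0.05), where both called 3 higher and 1 lower. Cdk1, the kinase of mitosis, had means of 29.0, 16.6, 117 and 42.4 CPM in healthy, day 1, day 3 and day 7 mice, and its rise at day 3 was 2.01 (SE 0.28, adjusted p = 0.00200). Ccne1 (cyclin E1, at the entry to S phase) rose from 2.20 to 12.0 CPM, Mcm5 (a subunit of the replicative helicase) from 25.0 to 104 CPM and Top2a (a topoisomerase of dividing cells) from 26.8 to 114 CPM. The level of Cdkn1c at day 3 was thus low in mice with high Cdk1, and at day 1 it was low in mice in which Cdk1 was not called.

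**Figure D3:**
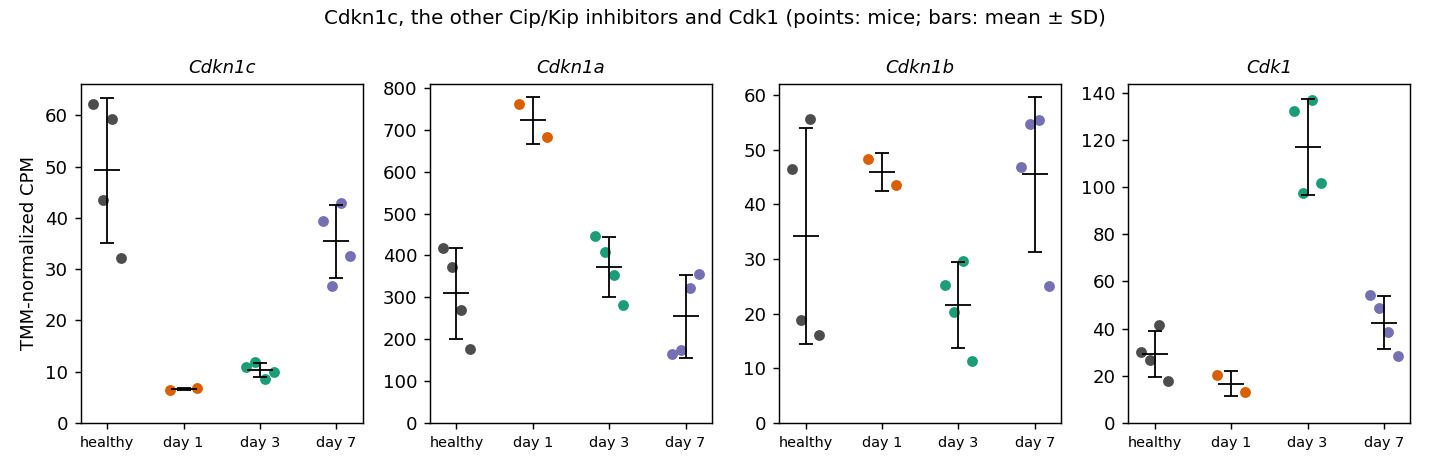
TMM-normalized CPM (y axis, linear, from 0) of Cdkn1c, Cdkn1a, Cdkn1b and Cdk1 in each mouse of the 4 groups; points are mice, marks and bars the mean ± SD. Cdkn1c is lowest at days 1 and 3, and Cdk1 is highest at day 3 (mean 117 CPM).

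Mest, also known as Peg1, encodes a protein with an alpha/beta hydrolase fold found in the endoplasmic reticulum and is widely expressed in fetal mesoderm. It lies on chr6:30723547-30748465 (plus strand). Its level was 196, 159, 164 and 117 CPM in healthy mice, 142 and 87.8 CPM at day 1, 249, 301, 488 and 381 CPM at day 3, and 395, 178, 317 and 290 CPM at day 7. All day 3 mice were above all healthy and all day 1 mice (as for 7.53% and 11.4% of all tested genes), and 1 of the 4 day 7 mice was within the healthy range.
The mean was 2.23-fold that of healthy LSECs at day 3 (log2 fold change 1.16, SE 0.28, adjusted p = 0.0250 in edgeR). It was also 3.08-fold that of day 1 (1.62, SE 0.37, adjusted p = 0.0329), where 2.54% of all genes were called and 1.57% were higher. At day 7 the difference from healthy LSECs was 0.89 (SE 0.28, adjusted p = 0.0934). The rise against healthy LSECs was not called without healthy mouse 2, 3 or 4 or day 3 mouse 3 (adjusted p = 0.0678, 0.0621, 0.109 and 0.104), and without day 3 mice 3 and 4 together it was 0.68 (adjusted p = 0.120), against 1.43 without mice 1 and 2. The rise from day 1 was lost without either day 1 mouse or without day 3 mouse 3 or 4 (adjusted p = 0.216, 0.418, 0.0849 and 0.0517), and without mice 3 and 4 together (1.16, adjusted p = 0.0584). On the TPM scale the day 3 mice (82.1 to 248 TPM) overlapped the healthy ones (72.7 to 109 TPM). Mest shares 912 exonic bases with Copg2 on the opposite strand, and whether counting used the strand is not given in the sources used here.

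Igf2 encodes insulin-like growth factor 2, a fetal growth factor that acts through the IGF1 and insulin receptors. The gene (chr7:142650766-142666816, minus strand) shares 3596 exonic bases on the same strand with a second gene model, Gm49394, so reads of this locus could be counted on either. Counts on Igf2 were 104, 82, 13 and 90 in healthy mice, 89 and 84 at day 1, 8, 5, 10 and 0 at day 3, and 51, 140, 116 and 132 at day 7. Counts on Gm49394 were 109 in healthy mouse 3, 34, 21, 53 and 32 in the day 3 mice, and 0 in the other 9 mice. The samples with few counts on Igf2 were thus the ones with counts on Gm49394.
Taken alone, Igf2 was lower at day 3 than in healthy LSECs (log2 fold change -3.43, SE 0.85, adjusted p = 0.0283 in edgeR) and higher at day 7 than at day 3 (4.47, SE 0.89, adjusted p = 0.0263). With both gene models added into 1 count, a choice made after seeing the data, neither was called: the difference was -1.12 (SE 0.43, adjusted p = 0.140) at day 3 and 1.72 (SE 0.44, adjusted p = 0.0694) from day 3 to day 7. The summed level was 1.04, 0.963, 1.27 and 1.03 CPM in healthy mice, 1.06 and 0.925 CPM at day 1, 0.508, 0.442, 0.688 and 0.340 CPM at day 3, and 0.530, 1.96, 2.56 and 1.499 CPM at day 7. The day 3 mice still lay below all healthy mice (as for 6.84% of all tested genes) and all day 1 mice. The day 7 mice spread from 1 mouse in the day 3 range to 3 above the healthy mice. Against healthy LSECs the summed level differed by 0.60 at day 7 (SE 0.42, adjusted p = 0.439). The call of Igf2 alone at day 3 was also lost without healthy mouse 1 or 2 or day 3 mouse 1 or 2 (adjusted p = 0.0698, 0.0659, 0.0516 and 0.0619), and without day 3 mice 1 and 2 together (-3.86, adjusted p = 0.0699). That from day 3 to day 7 was lost without day 3 mouse 1, 2 or 3 or day 7 mouse 2, 3 or 4 (adjusted p = 0.0752, 0.0608, 0.0503, 0.0655, 0.102 and 0.0739), and without day 3 mice 1 and 2 together (4.91, adjusted p = 0.0732).

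**Figure D4:**
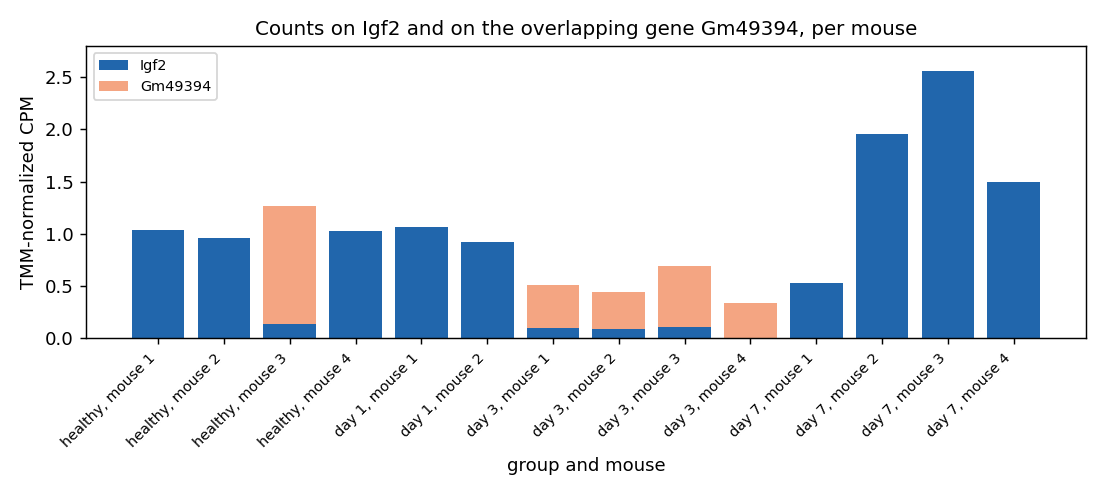
TMM-normalized CPM (y axis, linear, from 0) counted on Igf2 (blue) and on the overlapping gene model Gm49394 (orange), stacked, in each of the 14 mice. Counts on Gm49394 appear in healthy mouse 3 and in the 4 day 3 mice, and the summed day 3 levels (0.340 to 0.688 CPM) lie below the healthy ones (0.963 to 1.27 CPM).

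Receptors, adaptors and binding proteins of the IGF and insulin axis, which carry or modify the signal of Igf2, were examined as a list of 19 genes, of which 18 were tested. At day 1, 1 was called lower (Igfbp4, an IGF binding protein, from 2286 to 497 CPM, log2 fold change -2.20, SE 0.46, adjusted p = 0.0150). At day 3, 2 were called higher: Irs2, the adaptor of the insulin and IGF1 receptors, from 20.7 to 73.3 CPM (1.82, SE 0.29, adjusted p = 0.00383), and Igfbp3, another binding protein, from 6.78 to 46.6 CPM (2.78, SE 0.61, adjusted p = 0.0160). At day 7, 3 were called higher, Irs2, Igfbp3 and Igf2r, the receptor that clears Igf2 and is itself imprinted. Igf2r rose from 8.84 to 19.04 CPM (1.11, SE 0.27, adjusted p = 0.0420). The IGF1 receptor gene Igf1r had means of 42.2 CPM in healthy LSECs and 70.0 CPM at day 7 (0.73, SE 0.23, adjusted p = 0.1003). DESeq2 called 4 lower at day 1, 4 higher and 2 lower at day 3, and 5 higher and 1 lower at day 7. Limma-voom called 1 higher and 2 lower, 6 higher and 2 lower, and 9 higher and 2 lower. Of all genes, the alternatives called up to 4308, 7265 and 7047 on these days. The median log2 fold change of the tested genes was -0.17, 0.64 and 0.86 at days 1, 3 and 7.

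H19, a long noncoding RNA on chr7:142575529-142578143 (minus strand), is abundant in fetal liver and rare in the adult organ. Its counts were 11, 5, 16 and 3 in healthy mice, 3 and 0 at day 1, 35, 30, 16 and 35 at day 3, and 59, 144, 80 and 73 at day 7. In CPM these were 0.110, 0.0587, 0.166 and 0.0343 CPM in healthy mice, 0.423, 0.510, 0.175 and 0.372 CPM at day 3 and 0.613, 2.01, 1.76 and 0.82902 CPM at day 7. On this scale the 3 groups did not overlap, each lying above the one before, although healthy mouse 3 (0.166) and day 3 mouse 3 (0.175) were close. All mice of the group lay above all healthy mice for 7.53% of all tested genes at day 3 and for 8.72% at day 7.
At day 7 the mean was 14.1-fold that of healthy LSECs (log2 fold change 3.79, SE 0.73, adjusted p = 0.0170 in edgeR). The difference at day 3 was not called (1.97, SE 0.69, adjusted p = 0.107, against 0.0172 in DESeq2, 0.0309 in limma-voom and 0.0493 without day 3 mice 3 and 4), nor was the difference between days 3 and 7 (1.82, SE 0.67, adjusted p = 0.189). Without healthy mouse 1, healthy mouse 2 or day 7 mouse 2 the adjusted p at day 7 was 0.0619, 0.0643 and 0.0600, with log2 fold changes of 3.88, 3.63 and 3.502. On the TPM scale the day 7 mice (0.527 to 1.17 TPM) also stood above the healthy ones (0.0342 to 0.151 TPM), whereas the day 3 mice (0.142 to 0.378 TPM) overlapped them. With 3 counts in 2 mice, no fold change is given for day 1.

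Genes that share fetal expression or regulation with H19 in the liver were looked at as a list of 8 genes. At day 3, 2 were called higher, Afp (alpha-fetoprotein, an albumin-like plasma protein of the fetus), from 0.206 to 6.58 CPM (log2 fold change 4.996, SE 0.97, adjusted p = 0.00916), and Hmga2, an embryonic chromatin protein, from 7.06 to 14.3 CPM (1.02, SE 0.28, adjusted p = 0.0467). At day 7, Hmga2 was called higher (1.13, SE 0.28, adjusted p = 0.0488). These are the calls of edgeR. DESeq2 called 2 higher at day 3 and 2 higher at day 7. Limma-voom called 1 higher at day 1, 1 higher and 2 lower at day 3, and 4 higher at day 7. Zhx2, a known repressor of Afp and H19 in the adult mouse liver, had means of 7.63, 5.67, 6.63 and 9.81 CPM in healthy, day 1, day 3 and day 7 mice and was called in no comparison by edgeR. Afp is made by hepatocytes. The sum of 9 hepatocyte markers was 248, 186, 361 and 8182 CPM in healthy mice 1 to 4 and 859 to 2983 CPM at day 3. Every day 3 mouse was thus above healthy mice 1, 2 and 3 and below healthy mouse 4. The part of hepatocyte RNA in the level of Afp was not tested.

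Meg3, the other long noncoding RNA of the group, lies on chr12:109541001-109571726 (plus strand) next to Dlk1. Its level was 0.349, 0.0822, 0.239 and 0.584 CPM in healthy mice, 0.0957 and 0.0770 CPM at day 1, 1.79, 0.851, 1.17 and 4.48 CPM at day 3, and 0.499, 8.80, 1.54 and 6.43 CPM at day 7. All day 3 mice lay above all healthy mice in CPM, as was the case for 7.53% of all tested genes. Day 7 mouse 1 was within the healthy range, whereas day 7 mice 2 and 4 were the highest of all 14. On the TPM scale the healthy mice (0.00989 to 0.0791 TPM) were overlapped by those of day 3 (0.0518 to 0.619 TPM) and of day 7 (0.0750 to 0.698 TPM).
At day 7 the mean was 13.8-fold that of healthy LSECs (log2 fold change 3.78, SE 0.88, adjusted p = 0.0374 in edgeR), and at day 3 it was 6.61-fold (2.72, SE 0.85, adjusted p = 0.0703). The call at day 7 was lost without healthy mouse 1, 2 or 3 or day 7 mouse 2, 3 or 4 (adjusted p = 0.104, 0.101, 0.108, 0.122, 0.0520 and 0.0850), and the log2 fold change without day 7 mouse 2 was 3.17. At day 3 it was 1.92 without mouse 4, 1.94 without mice 3 and 4, and 3.13 without mice 1 and 2.

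The mice highest in Meg3 were also high in stellate cell markers. Day 7 mice 2 and 4, first and second in Meg3 and in Peg3, had stellate sums of 907 and 584 CPM, the highest and second highest of the 14, and day 7 mouse 1, the lowest of its group in Meg3, Peg3 and H19, had the lowest stellate sum of its group (110 CPM). Of the 12 stellate markers, 7 were called higher at day 3 and 10 at day 7. Within day 7, Mest was lowest in mouse 2 (178 CPM) and highest in mouse 1 (395 CPM). Between groups, Mest was 117 to 196 CPM in healthy mice, with stellate sums of 62.2 to 98.3 CPM. It was 249 to 488 CPM at day 3, with stellate sums of 253 to 489 CPM. The sum of 8 portal fibroblast and mesothelium markers was also highest in day 7 mice 2 and 4 (67.4 and 58.4 CPM). It was lowest of that group in mouse 1 (11.9 CPM). For 6 cholangiocyte and progenitor markers it was 5258 CPM in day 7 mouse 2, the highest of all mice, and 601 CPM in mouse 4. Day 3 mouse 2, with a stellate sum of 489 CPM, was the lowest of its group in Meg3 (0.851 CPM). The part of RNA of stellate or of these other cells in the levels of the members was not tested.

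**Figure D5:**
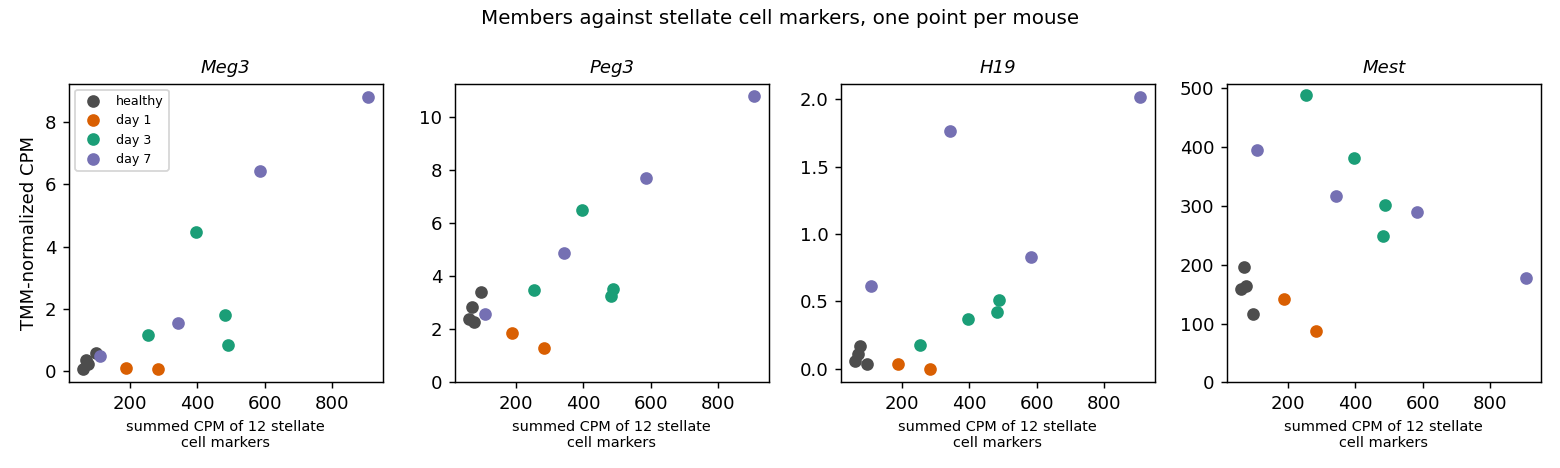
TMM-normalized CPM (y axis) of Meg3, Peg3, H19 and Mest against the summed CPM of 12 stellate cell markers (x axis), linear scales, 1 point per mouse, coloured by group. Day 7 mice 2 and 4, with sums of 907 and 584 CPM, are the highest for Meg3 (8.80 and 6.43 CPM) and Peg3 (10.8 and 7.69 CPM), and the highest Mest level (488 CPM) belongs to a mouse with a sum of 253 CPM.

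Dlk1, a transmembrane protein with EGF repeats that marks fetal hepatoblasts, was the least expressed member in healthy LSECs (chr12:109452823-109463336, plus strand). Its counts were 5, 5, 0 and 6 in healthy mice, 0 and 2 at day 1, 6, 3, 8 and 46 at day 3, and 0, 12, 2 and 12 at day 7. Day 3 mouse 4 held 46 of the 63 counts of its group. Dlk1 was called in no comparison by edgeR.

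Grb10 encodes an adaptor that dampens signalling by the insulin and IGF1 receptors (chr11:11930508-12038683, minus strand). It differed from healthy LSECs by 0.70 at most on the log2 scale, the least of the 9 genes, with 42.6, 37.6, 44.4 and 44.9 CPM in healthy mice, 52.4 and 43.3 CPM at day 1, 42.2, 59.7, 61.9 and 70.9 CPM at day 3, and 48.0, 86.8, 72.4 and 67.5 CPM at day 7. All day 7 mice lay above all healthy mice, as was the case for 8.72% of all tested genes. The difference at day 7 was 0.70 (SE 0.20) and was not called by edgeR (adjusted p = 0.0750), and on the TPM scale the mice overlapped (10.4 to 14.4 against 9.01 to 12.1 TPM).

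Plagl1, also called Zac1, encodes a zinc finger transcription factor that halts the cell cycle when overexpressed and regulates other imprinted genes (chr10:13060504-13131694, plus strand). Its level was 22.0, 18.3, 25.7 and 12.6 CPM in healthy mice, 33.4 and 27.2 CPM at day 1, 21.4, 29.1, 39.1 and 51.4 CPM at day 3, and 17.6, 45.6, 50.6 and 57.1 CPM at day 7. Day 7 mouse 1 was within the healthy range and the other 3 were well above it. The difference at day 7 was 1.12 (SE 0.36, adjusted p = 0.0976) and at day 3 0.84 (SE 0.35, adjusted p = 0.178).

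Peg3, a large zinc finger protein of the nucleus (chr7:6703892-6730431, minus strand), was at 2.83, 2.38, 2.29 and 3.399 CPM in healthy mice, 1.87 and 1.30 CPM at day 1, 3.25, 3.52, 3.48 and 6.48 CPM at day 3, and 2.58, 10.8, 4.85 and 7.69 CPM at day 7. Both day 1 mice were below all healthy mice, as was the case for 17.9% of all tested genes, and at day 7 the group again spread from the healthy range upward. None of the differences was called (day 7: 1.25, SE 0.40, adjusted p = 0.1003). Grb10, Plagl1, Peg3 and Mest were called higher at day 7 by both DESeq2 and limma-voom. Alternatives that kept every mouse called 435 to 7047 of all genes at day 7, against 846 in the main edgeR test. Without day 7 mouse 1, edgeR called Grb10, Plagl1 and Peg3 higher at day 7 as well (adjusted p = 0.0385, 0.0257 and 0.0339).

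Of 45 further imprinted genes tested (of 50 listed), none was called at day 1 by edgeR (9 at an unadjusted p under 0.05, while DESeq2 called 2 lower and limma-voom 1 higher and 4 lower), 3 were higher and 1 lower at day 3, and 4 were higher and 1 lower at day 7. DESeq2 called 4 higher and 1 lower at day 3 and 8 higher and 1 lower at day 7, and limma-voom 9 higher and 5 lower and 11 higher and 5 lower. Of all genes, the alternatives called up to 7265 at day 3 and 7047 at day 7, against 1915 and 846 in the main edgeR test. Peg10, a paternally expressed gene derived from a retrotransposon, rose from 0.988 to 12.2 CPM at day 3 (log2 fold change 3.63, SE 0.60, adjusted p = 0.00433) and was at 5.01 CPM at day 7 (2.34, SE 0.57, adjusted p = 0.0420). Ndn (necdin), which restrains cell growth, rose from 1.26 to 7.61 CPM at day 3 (2.60, SE 0.58, adjusted p = 0.0177), and Nnat, a small membrane protein of the endoplasmic reticulum, from 0.317 to 2.60 CPM at day 7 (3.03, SE 0.62, adjusted p = 0.0205). Cd81, a tetraspanin, was the one that edgeR called lower, from 1417 to 742 CPM at day 3 (-0.93, SE 0.26, adjusted p = 0.0432) and to 655 CPM at day 7 (-1.11, SE 0.26, adjusted p = 0.0364). The remaining gene that edgeR called higher was Dcn, a matrix proteoglycan of fibroblasts and stellate cells, with means of 141, 592 and 835 CPM in healthy, day 3 and day 7 mice. The median log2 fold change of the 45 genes was -0.31, 0.12 and 0.15 at days 1, 3 and 7.

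Genes that keep imprints through cell division were measured as a list of 14. At day 3, 2 were called higher, the maintenance methyltransferase Dnmt1 (44.2 to 107 CPM, 1.28, SE 0.28, adjusted p = 0.0162) and its partner Uhrf1 (6.31 to 54.8 CPM, 3.12, SE 0.49, adjusted p = 0.00317). Both fell again from day 3 to day 7 (-1.28, SE 0.28, adjusted p = 0.0375, and -2.14, SE 0.47, adjusted p = 0.0374). Both are S phase genes as well, and 12 of 14 cell division genes were high at the same time. Ctcf, the insulator protein that binds between Igf2 and H19, was called in no comparison by edgeR (110, 88.1, 105 and 93.5 CPM in healthy, day 1, day 3 and day 7 mice). Of the 14 genes DESeq2 called 3 higher at day 3, and limma-voom 3 higher and 2 lower at day 3 and 1 higher at day 7. From day 3 to day 7 DESeq2 called 2 lower, and limma-voom 2 higher and 2 lower.

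The genes whose log2 levels ran most alike over the 14 mice are given as a description, since all share the same libraries. For Meg3 they were Emp2, Gata6 and Epha7 (Pearson r = 0.980, 0.977 and 0.975), and for Peg3 Mmp11, Col4a5 and Epha7 (0.972, 0.969 and 0.959), so Epha7 stood in both. For H19 they were Ncam1, Runx1t1 and Gucy1b1 (0.939, 0.933 and 0.928). For Cdkn1c the protein-coding gene Gpr155 came first (0.946), for Plagl1 Chd4 (0.927), for Grb10 Inava (0.937), for Mest the pseudogene Gm9419 (0.925), for Dlk1 Hcn4 (0.923) and for Igf2 the small nuclear RNA Gm23887 (0.891). The levels of Igf2 used here left out the counts on Gm49394, so they carry the split between the gene models. Dlk1 held 12 counts or fewer in every mouse except day 3 mouse 4.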

How the data were processed

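RNA of sorted LSECs from 14 mice was analysed, grouped by the sample labels. The authors mapped reads with STAR to GRCm38, used StringTie for assembly, and deposited counts (whole numbers) per Ensembl gene without normalization. Use of strand, and how StringTie output became counts, are not given in the sources used here. No column was left unused. The study names DESeq2, used here as an alternative.

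Symbols, positions and exon lengths came from GENCODE vM21. Genes were filtered with filterByExpr (minimum count 10, minimum total count 15) and tested with edgeR 4.0.16 (R 4.3.3), TMM scaling, 1 model of 4 group means over all 14 samples and Benjamini-Hochberg adjustment over 26626 genes, and the steps were tested on simulated data. SE is the absolute log2 fold change over the square root of F. Detection required 3 counts in a sample, a floor for counting error alone. TPM used the summed exon length. P-values measure the spread between mice.

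The members, gene lists and tests were chosen with earlier results of these data known. The genes named from each list were the up to 4 with the smallest adjusted p by the naming rule, plus Cdkn1a, Cdkn1b, Cdkn2c, Igf1r, Zhx2, Ctcf and Dcn, named after their values were seen. Likeness is Pearson r of log2 CPM (prior count 2). Among the alternatives were DESeq2 1.42.0, limma-voom 3.58.1 with sample weights, other scaling and filters, only the 2 groups compared, a replicate block, leaving out samples, and counts of Igf2 and Gm49394 added together.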

Additional observations from a re-analysis of the deposited data

Results flagged for a closer look

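In 3 of 27 groups of 4 mice, 1 mouse stood apart from the other 3 by more than Dixon's 95% limit on the gap divided by the range, which chance exceeds in about 1 of 20 groups. Igf2 in healthy mouse 3 was the lowest of its group with a ratio of 0.917, and this is the healthy mouse with 109 counts on Gm49394. Dlk1 in day 3 mouse 4 was the highest of its group (0.917), as was Peg3 in the same mouse (0.917).

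Differences between the days after CCl4, tested directly in edgeR, were called for 3 genes. Mest was higher at day 3 than at day 1 by 1.62 on the log2 scale. Cdkn1c was higher at day 7 than at day 3 by 1.77, and Igf2 by 4.47, or by 1.72 and not called (adjusted p = 0.0694) when counts on Gm49394 were added.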

How the results depend on the processing

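The call of Cdkn1c at day 1 and at day 3 held under all 15 and 19 alternatives, and the 1 member called at day 1 was the same number throughout. At day 3 (3 members called) DESeq2 called 5, and leaving out 1 mouse gave 1 to 3. At day 7 (2 called) DESeq2 and limma-voom each called 6, the model of only the 2 groups 4, and leaving out 1 mouse 0 to 5. Of all genes, the alternatives called 946 to 7265 at day 3 and 193 to 7047 at day 7, against 1915 and 846 in the main test. Between days 1 and 3 (1 called) DESeq2 called 5, limma-voom 2, the model of only the 2 groups 0, leaving out 1 mouse 0 to 1, and leaving out day 3 mice 3 and 4 called 2. Between days 3 and 7 (2 called) the count was 1 with at least 10 counts in every sample, 1 without day 3 mice 1 and 2, 1 with Igf2 and Gm49394 summed, 0 in the model of only the 2 groups and 1 to 2 when leaving out 1 mouse.

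Among the log2 fold changes, 670 alternative values kept direction and side of the threshold, 29 became called, 44 lost the call and 14 turned direction, none of them called. Those that turned were Dlk1 from day 3 to day 7 (-1.52 to 0.38 when leaving out 1 mouse, 0.60 without day 3 mice 3 and 4, 0.12 in limma-voom), Grb10 at day 1 (-0.0038 to 0.28 when leaving out 1 mouse) and from day 1 to day 3 (-0.0098 without day 3 mice 3 and 4), and Igf2 at day 1 (-0.023 to 0.49 when leaving out 1 mouse, -0.11 with Gm49394 added). The others were Mest from day 3 to day 7 (-0.34 to 0.076 when leaving out 1 mouse, 0.23 without mice 3 and 4), Plagl1 from day 1 to day 3 (-0.12 with the replicate block, -0.076 to 0.36 when leaving out 1 mouse, -0.36 without mice 3 and 4, -0.14 in limma-voom) and from day 3 to day 7 (-0.048 without day 3 mice 1 and 2). The cause was not tested. Mest at day 3 was also not called with no filter on low counts (adjusted p = 0.0715).

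The mice are different animals and share only a number in the labels. Over 18 pairs of same-numbered samples the correlation of deviations from the group means lay between -0.23 and 0.096. With the replicate block the count of members called was 0 between days 1 and 3, 1 at day 7 and 1 between days 3 and 7.

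The number of all genes called moved as well. It went from 1080 to between 164 and 4308 at day 1 and from 1915 to between 946 and 7265 at day 3. At day 7 it went from 846 to between 193 and 7047. The number went from 676 to between 49 and 3344 between days 1 and 3, and from 472 to between 1 and 6133 between days 3 and 7. With library size only, the share of called genes that were higher went from 64.2% to 75.1% at day 3 and from 68.8% to 86.8% at day 7. The healthy mice together held 16 counts on Dlk1, 35 on H19, 116 on Meg3 and 289 on Igf2, which limits the precision of their fold changes.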
